A study of Mus musculus with 49 samples.

Results

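Mouse fibroblasts that received SOX2, KLF4 and MYC (SKM) together with GATA4 were compared directly with fibroblasts that received the same 3 genes together with GATA6. The members were chosen by their array titles, which gave 3 arrays of GATA4+SKM and 2 arrays of GATA6+SKM, 5 of 49 arrays in the series. The cells were skin fibroblasts of female OGXICR mouse embryos (MEF) at D13.5, infected with a doxycycline-inducible lentiviral system. Neither group received OCT4 (POU5F1), and the SKM genes were shared by both groups. Another group, SKM+EV, received the same 3 genes and an empty vector (EV) on 2 arrays, and is given beside the 2 GATA groups as their common background. The time after infection, the species of the introduced genes, the size of any animal pool and whether replicates were separate cultures are not given in the labels, so p-values measure only the spread between arrays. The series asked which factors can serve in reprogramming beside the usual ones, and the question here is in what the fibroblasts differ when 1 GATA factor stands in the place of the other.

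GATA4 and GATA6 are zinc finger transcription factors of one family that bind DNA at the letters GATA. Both are needed in the embryo for endoderm and heart, where they act with cofactors of the FOG family (Zfpm1 and Zfpm2) and with heart factors such as TBX5, MEF2C and HAND2. GATA6 drives primitive endoderm, the early lineage that lines the yolk cavity. SOX2, KLF4 and MYC are reprogramming factors that, with OCT4, turn fibroblasts into pluripotent stem cells.

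Values are intensities on a linear scale. A gene was called where the limma fit across all genes, on log2(intensity + 32), gave a Benjamini-Hochberg adjusted p under 0.05, and log2 fold changes are GATA4+SKM minus GATA6+SKM. Array medians ran from 401 to 416 over the 23 arrays fitted together. Across 10108 genes, arrays correlated at 0.987 to 0.992 within GATA4+SKM, at 0.984 within GATA6+SKM and at 0.902 to 0.932 between them, as a description over genes that are not independent. The GATA6+SKM replicates did not stand equally near to GATA4+SKM, at 0.902 to 0.919 for replicate 1 and 0.924 to 0.932 for replicate 2. Genes that these cells would not be taken to use moved with the arrays: the median intensity over 106 olfactory receptor genes was 117, 142 and 158 in GATA4+SKM, against 317 and 194 in GATA6+SKM and 137 to 407 on the other 18 arrays. It was 137 to 191 on the arrays of CEBPa+SKM, HNF4a+SKM and GRB2+SKM. In MEF1 EV, SKM+EV, OCT4+SKM and MIXL1+SKM it was 271 to 407. Replicates of SOX7+SKM (196 and 300) and PAX1+SKM (188 and 301) differed in these receptor medians. Of these receptors 56 were called lower in GATA4+SKM and 2 higher, with 33 lower without GATA4+SKM replicate 1. Their median log2 fold change was -0.67, and -0.39 without GATA6+SKM replicate 1. With the dimmest 25% of genes left out, the 50 receptors that remained had a median of -0.82. The dimmest 2527 genes as a set did not move this way. Their median log2 fold change was 0.06, with 30.9% called higher and 18.6% lower. A call on a single dim gene may still hold the shift of the receptors, whose part was not tested. The labels name no batch, and any unlabelled batch and the 2 groups cannot be told apart.

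Genes of fibroblasts and of other cell types were read first. Of 37 fibroblast genes listed, 32 had a value, and Vim, Col1a2 and Prrx1, genes of mesenchymal cells named for this check only, were above the median gene (667) in both groups. Not every member was: Fap averaged 958 in GATA4+SKM, but 313 in GATA6+SKM, under the median gene. Vim, the mesenchymal filament vimentin, read 42309, 61574 and 64021 in GATA4+SKM, against 56567 and 57307 in GATA6+SKM. Col1a2, a chain of type I collagen, read 15023, 16428 and 15475 in GATA4+SKM, against 16506 and 16757 in GATA6+SKM. The endothelial marker Pecam1 read 11.7, 10.5 and -0.783 in GATA4+SKM, against 11.6 and 19.5 in GATA6+SKM, and the blood cell marker Ptprc read 54.1, 132 and 125 in GATA4+SKM, against 157 and 154 in GATA6+SKM, all under the median gene. The epidermal keratin Krt14, described below, was far above it, at means of 8904 in GATA4+SKM and 49055 in GATA6+SKM. These readings thus do not settle the identity of the cells.

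The probes for the introduced genes did not follow the labels. The Gata4 probe read 230.0, 335 and 379 in GATA4+SKM, against 518 and 612 in GATA6+SKM, and 1083 and 1099.8 in SKM+EV. It was thus lowest where GATA4 was introduced (log2 fold change -0.80, adjusted p = 0.0106), a call that was lost without GATA4+SKM replicate 1 or without GATA6+SKM replicate 2, where adjusted p was at most 0.078. The Gata6 probe read 1033, 1181 and 1079 in GATA4+SKM, against 1948 and 1668 in GATA6+SKM, and 2361 and 2336 in SKM+EV (log2 fold change -0.70, adjusted p = 1.7e-05). Both probes were thus lower in each GATA group than in SKM+EV. Klf4, common to both groups, read 1705, 1693 and 1488 in GATA4+SKM, against 1773 and 1593 in GATA6+SKM and did not pass (log2 fold change -0.05, adjusted p = 0.705). Sox2 and Myc had no probe with a value. Whether a probe detects an introduced transcript is not known, so these readings check neither label, and the groups are called by their labels.

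The choice of GATA factor went with wide differences. Of 10108 genes tested, 5872 (58.1%) were called, 3285 higher (32.5%) and 2587 lower (25.6%) in GATA4+SKM. With a difference of at least 2-fold as well, 1599 genes (15.8%) were called, 824 higher (8.15%) and 775 lower (7.67%). The median log2 fold change over all genes was 0.04, and its 5th and 95th percentiles were -1.18 and 1.19. The 95% interval of a gene's log2 fold change reached a median of 0.31 to either side. Since most genes passed, a list was read against these shares. In bulk RNA, fewer cells of a type and less RNA per cell cannot be told apart. The plot of group means shows leading genes on both sides of the diagonal.

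**Figure D1:**
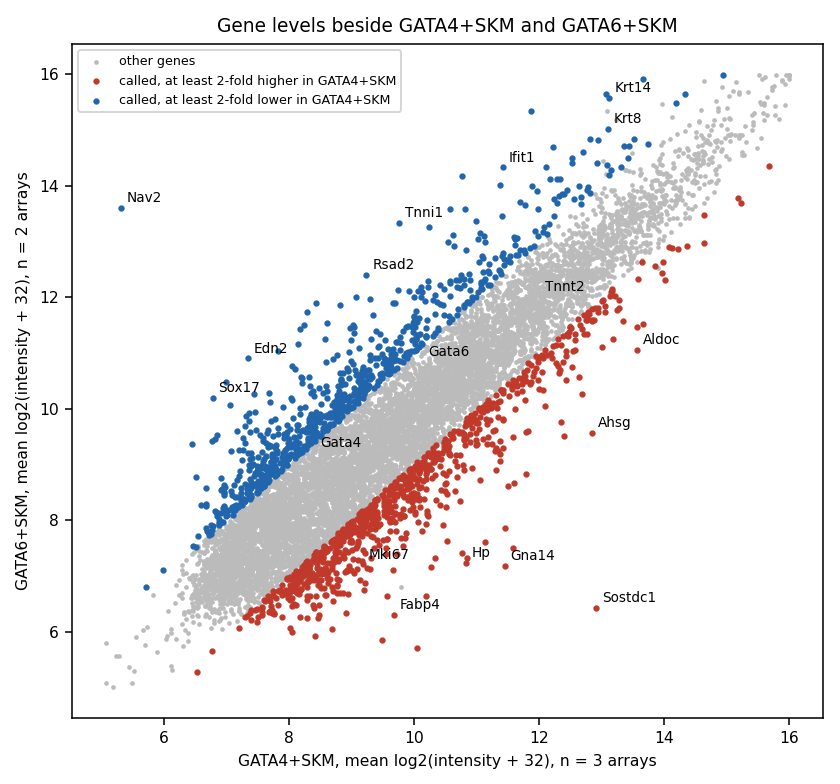
Mean log2(intensity + 32) of 10108 genes in GATA4+SKM (x axis, 3 arrays) and GATA6+SKM (y axis, 2 arrays), with a point per gene. Red points are the 824 genes called and at least 2-fold higher in GATA4+SKM, blue points the 775 called and at least 2-fold lower, and Sostdc1 and Nav2 lie farthest from the diagonal.

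The genes that rose most in GATA4+SKM were Sostdc1, Mmut, Gna14, Mfap3l and Sec14l2, followed by genes such as Hp, Grin1 and Fabp4. Sostdc1, a secreted antagonist of BMP and Wnt signals, had intensities of 7379.8, 8217 and 7458 in GATA4+SKM, against 36.6 and 74.7 in GATA6+SKM. The arrays did not overlap (log2 fold change 6.49, adjusted p = 2.3e-14), SKM+EV read 197 and 252, and the means of the other 8 SKM groups ran from 224 to 2981, below GATA4+SKM and above GATA6+SKM. Gna14, a G protein alpha subunit, had 3131, 2496 and 2686 in GATA4+SKM, against 103 and 123 in GATA6+SKM (log2 fold change 4.27, adjusted p = 1.1e-11). Its SKM+EV arrays, at 129.8 and 228, were near those of GATA6+SKM. Mfap3l read 2947, 3064 and 3045 in GATA4+SKM, against 144 and 153 in GATA6+SKM (log2 fold change 4.08, adjusted p = 5.9e-13). Grin1, a subunit of the NMDA glutamate receptor, read 1132, 1174 and 1100.0 in GATA4+SKM, against 66.7 and 68.5 in GATA6+SKM (log2 fold change 3.55, adjusted p = 1.5e-12). The Grin1 difference was smaller on the mean of all its probes. Every GATA4+SKM array was above every GATA6+SKM array for each of these genes, as the naming rule required. The arrays of the 2 groups did not overlap for 7233 of all genes (71.6%). Slc2a12, a sugar transporter, read 2159, 2099 and 2385 in GATA4+SKM, against 194 and 136 in GATA6+SKM (log2 fold change 3.52, adjusted p = 7.4e-12). Abi3bp, an extracellular matrix protein, read 1857, 1751 and 1824 in GATA4+SKM, against 97.7 and 167 in GATA6+SKM (log2 fold change 3.52, adjusted p = 5.4e-11), and 1802 and 2369.8 in SKM+EV. Abi3bp thus stood near its SKM+EV level in GATA4+SKM and far below it in GATA6+SKM (log2 fold change -3.71 against SKM+EV, adjusted p = 6.9e-11).

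The remaining rises of the rule were Mmut, Sec14l2, Pde6h, Drp2, Wnk4 and Tex15, with log2 fold changes from 3.00 to 4.34. Pde6h, a photoreceptor phosphodiesterase subunit, read 2699.5, 2813 and 2781 in GATA4+SKM, against 189 and 213 in GATA6+SKM, and Drp2, a relative of dystrophin, read 1769.9, 1837 and 1529 in GATA4+SKM, against 163 and 116 in GATA6+SKM. Wnk4, a kinase of ion transport, read 1176, 1312 and 1133 in GATA4+SKM, against 107 and 116 in GATA6+SKM, and Tex15, a germ cell gene, read 1201, 1292 and 1273 in GATA4+SKM, against 158 and 104 in GATA6+SKM. For these 4 genes SKM+EV was near GATA6+SKM, at log2 differences of GATA6+SKM from SKM+EV between -0.65 and 0.12. Mmut, the mitochondrial methylmalonyl-CoA mutase, read 1039.7, 1063 and 976 in GATA4+SKM, against 26.5 and 14.7 in GATA6+SKM (log2 fold change 4.34, adjusted p = 9.7e-05, SE 0.74). Its replicates disagreed elsewhere: the 2 arrays of OCT4+SKM read 45.1 and 1759. The Mmut difference was also smaller on the mean of all its probes.

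Of 5 liver genes measured, 3 rose, 1 fell and 1 did not pass, with a median log2 fold change of 1.49. That median is Rbp4, and on the mean of all probes of a gene both it and the list's median were 0.53. Hp, the haemoglobin scavenger haptoglobin, read 1790.5, 1934 and 1659.7 in GATA4+SKM, against 87.7 and 156 in GATA6+SKM (log2 fold change 3.60, adjusted p = 6.4e-09), but 7420.0 and 8599 in SKM+EV. Both GATA groups were below SKM+EV for Hp, GATA6+SKM further than GATA4+SKM (log2 fold changes -2.14 for GATA4+SKM and -5.74 for GATA6+SKM against SKM+EV). Ahsg, the liver plasma protein fetuin-A, read 6458, 8815 and 6807 in GATA4+SKM, against 752 and 708 in GATA6+SKM (log2 fold change 3.27, adjusted p = 2.0e-11), and 101 and 81.9 in SKM+EV. Ahsg was above SKM+EV in both GATA groups, by 5.89 log2 units in GATA4+SKM and 2.63 in GATA6+SKM, and the other SKM groups had means from 49.3 to 549. Rbp4, the retinol carrier, read 1049.6, 1033 and 882 in GATA4+SKM, against 305 and 355 in GATA6+SKM (log2 fold change 1.49, adjusted p = 2.0e-07), while Apoe, a lipid carrier, fell, with 880.0, 966 and 1013 in GATA4+SKM, against 1976 and 1762 in GATA6+SKM (log2 fold change -0.95, adjusted p = 2.8e-07).

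The Ahsg promoter window is shown because this gene was raised in both GATA groups and its window holds GATA letters. It comes from RefSeq, build GRCm38.p6 (chr16:22891765-22892064, plus strand), with 250 bases before to 50 bases after the gene's start, and capitals mark the matches, whose first bases lie 192 and 4 bases before the start.
Ahsg: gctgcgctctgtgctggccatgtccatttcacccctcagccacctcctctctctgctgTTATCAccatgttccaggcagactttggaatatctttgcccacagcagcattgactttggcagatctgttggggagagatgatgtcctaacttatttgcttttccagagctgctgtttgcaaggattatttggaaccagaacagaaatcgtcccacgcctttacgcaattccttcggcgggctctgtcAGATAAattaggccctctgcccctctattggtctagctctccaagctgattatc
The motif searched, on both strands, was GATA with an A or a T before it and an A or a G after it. Of 10316 windows of 8150 tested genes that RefSeq held, 20.1% had a match. Among genes at least 2-fold higher in GATA4+SKM, 18.7% of 877 windows had one, and among genes at least 2-fold lower, 25.6% of 751 windows. A match is a description of letters, not a binding site.

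**Figure D2:**
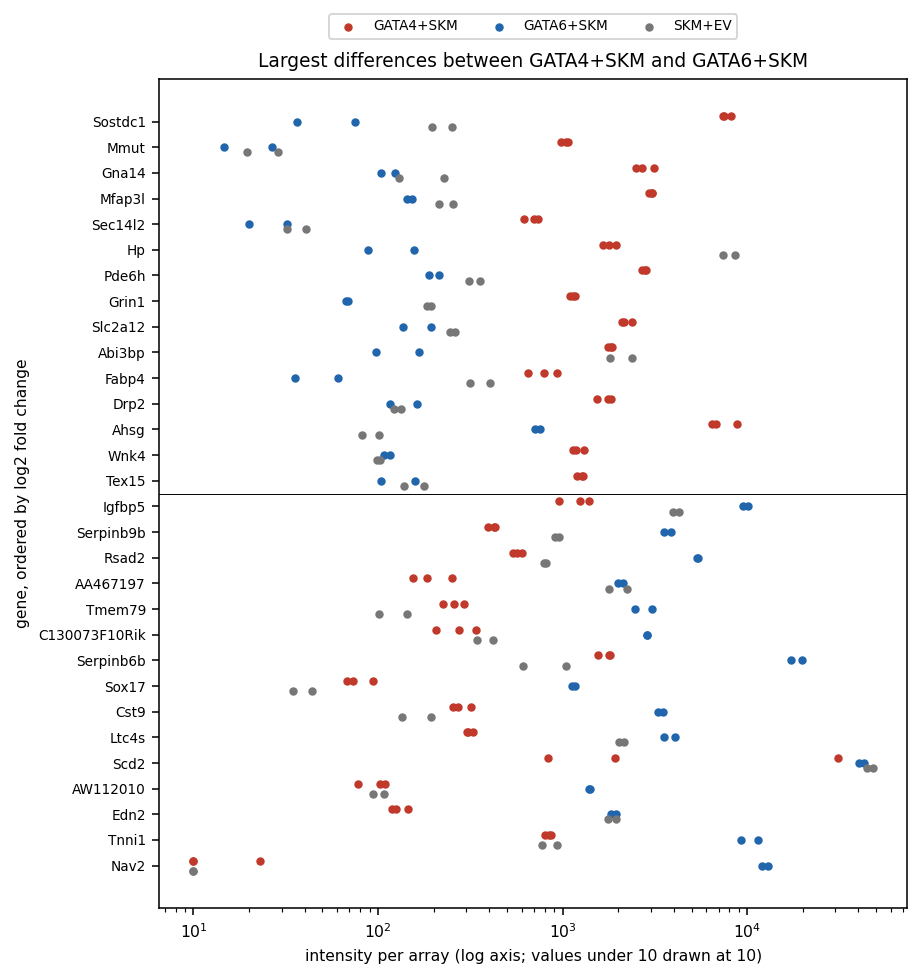
Intensity on each array (log axis, values under 10 drawn at 10) for the 15 largest rises (above the line) and 15 largest falls (below it), with GATA4+SKM in red (3 arrays), GATA6+SKM in blue (2 arrays) and SKM+EV in grey (2 arrays). Arrays of GATA4+SKM and GATA6+SKM do not overlap for any of the 30 genes, as the naming rule required. Scd2 is the gene whose GATA4+SKM arrays are spread widest.

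The genes that fell most in GATA4+SKM included Nav2, Tnni1, Edn2, Ltc4s, Cst9, Sox17 and Rsad2. Edn2, the vasoconstrictor endothelin 2, read 146, 119 and 125 in GATA4+SKM, against 1935 and 1834 in GATA6+SKM (log2 fold change -3.57, adjusted p = 4.6e-13). Its SKM+EV arrays, 1941 and 1769, were close to GATA6+SKM, so that the difference from SKM+EV was in GATA4+SKM (-3.54 for GATA4+SKM, 0.02 for GATA6+SKM, log2). Ltc4s, leukotriene C4 synthase, read 308, 302 and 329 in GATA4+SKM, against 3541 and 4059 in GATA6+SKM (log2 fold change -3.47, adjusted p = 1.2e-13), and 2158 and 2010.1 in SKM+EV. Cst9, a cystatin, read 255, 319 and 272 in GATA4+SKM, against 3496 and 3299.7 in GATA6+SKM (log2 fold change -3.46, adjusted p = 1.4e-10). Here SKM+EV, at 193 and 135, was near GATA4+SKM, and GATA6+SKM was far above it (4.14 log2 units, adjusted p = 3.9e-11). Igfbp5, which binds insulin-like growth factors, read 1386, 956 and 1242 in GATA4+SKM, against 10133 and 9489 in GATA6+SKM (log2 fold change -3.02, adjusted p = 2.0e-12), with SKM+EV between them at 4292 and 3976.

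The clade B serpins, inhibitors of proteases inside cells, gave 2 of the 15 falls. Serpinb6b read 1776, 1554 and 1802 in GATA4+SKM, against 17217 and 19762 in GATA6+SKM (log2 fold change -3.41, adjusted p = 1.6e-10), and Serpinb9b read 394, 433 and 424 in GATA4+SKM, against 3879.8 and 3521 in GATA6+SKM (log2 fold change -3.05, adjusted p = 1.5e-12). Tmem79, a membrane protein of skin epidermis, read 259, 291 and 224 in GATA4+SKM, against 3062 and 2455 in GATA6+SKM, and 143 and 101 in SKM+EV (log2 fold change -3.26, adjusted p = 7.3e-10). The falls AW112010, AA467197 and C130073F10Rik had log2 fold changes of -3.48, -3.21 and -3.26. Scd2, a fatty acid desaturase, read 829, 31203 and 1917 in GATA4+SKM, against 43022 and 40489 in GATA6+SKM (log2 fold change -3.48, adjusted p = 0.00245, SE 0.86). Its GATA4+SKM replicate 2 was near the GATA6+SKM level while the other two were far below, and the call was lost when the 5 arrays were fitted alone (adjusted p = 0.115). Nav2, a neuron navigator gene, read 3, 0.355 and 23 in GATA4+SKM, against 11969 and 12937 in GATA6+SKM (log2 fold change -8.30, adjusted p = 2.3e-14). Its probe was as low in SKM+EV and as high as 17227 on average in another SKM group. The Nav2 difference was smaller on the mean of all its probes.

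Most heart and smooth muscle genes measured were lower in GATA4+SKM. Of 11 heart and smooth muscle genes measured, 8 fell, none rose and 3 did not pass (median log2 fold change -0.49, against 0.04 over all genes). The share of all genes called lower was 25.6%. Against SKM+EV, 3 were higher and 6 lower in GATA4+SKM (median -0.49, 35.9% and 30.3% over all genes). In GATA6+SKM 5 were higher and 2 lower (median 0.005, 17.3% and 17.6% over all genes). Tnni1, the slow skeletal and fetal heart troponin I, read 845, 805 and 862 in GATA4+SKM, against 9304 and 11501 in GATA6+SKM (log2 fold change -3.58, adjusted p = 6.5e-13), and 770.3 and 938 in SKM+EV. GATA6+SKM was above SKM+EV by 3.56 log2 units, GATA4+SKM differed by -0.02, and the highest mean among the other SKM groups was 1688. Tnnc1, the slow and heart troponin C, read 1058, 799 and 956 in GATA4+SKM, against 1895 and 2077 in GATA6+SKM (log2 fold change -1.06, adjusted p = 0.00119), and both GATA groups were above the 227 and 299 of SKM+EV. Nppb, a natriuretic peptide of heart muscle, read 241, 316 and 283 in GATA4+SKM, against 796 and 670.0 in GATA6+SKM (log2 fold change -1.30, adjusted p = 8.2e-07), and 860 and 862 in SKM+EV. For Nppb the difference from SKM+EV was in GATA4+SKM (log2 fold change -1.52). That of GATA6+SKM did not pass (log2 fold change -0.23, adjusted p = 0.263 in the limma fit). Tagln, an actin-binding protein of smooth muscle, read 1038, 1019.9 and 1093 in GATA4+SKM, against 2085 and 2246 in GATA6+SKM (log2 fold change -1.02, adjusted p = 5.5e-08).

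Tnnt2, the heart troponin T, chosen for mention after its values were seen, did not pass between the 2 factors. It read 4384, 4466 and 3403 in GATA4+SKM, against 4429.7 and 3822 in GATA6+SKM (log2 fold change -0.02, adjusted p = 0.91), with a 95% interval of the log2 difference from -0.32 to 0.28. Both groups were above the 131 and 101 of SKM+EV, by 4.80 log2 units in GATA4+SKM and 4.82 in GATA6+SKM, and the other SKM groups had means from 62.4 to 799. These 3 troponin probes, of the 3 kinds of subunit of the complex, thus had log2 fold changes of -3.58 (Tnni1), -1.06 (Tnnc1) and -0.02 (Tnnt2), of which the last did not pass. Another troponin, Tnnt1 of the skeletal muscle list, went the other way, at 1.08.

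Among 10 measured GATA family members and cofactors, 6 fell, 1 rose and 3 did not pass. Zfpm1 (FOG1), the zinc finger partner of GATA proteins, read 2812, 2601 and 2740.3 in GATA4+SKM, against 7527 and 6669 in GATA6+SKM (log2 fold change -1.37, adjusted p = 4.8e-08). Both groups were above SKM+EV, which read 627 and 539, by 2.16 log2 units in GATA4+SKM and 3.54 in GATA6+SKM. Tbx5, a T-box factor of heart and forelimb, read 337, 544 and 471 in GATA4+SKM, against 1280.2 and 1029 in GATA6+SKM (log2 fold change -1.31, adjusted p = 2.1e-06). Mef2c, a MADS-box factor of muscle, fell by 0.90 on the log2 scale, but did not pass on the mean of its probes (adjusted p = 0.443). Hand2, a heart and limb factor, rose, with 455, 479.5 and 435 in GATA4+SKM, against 236 and 249 in GATA6+SKM (log2 fold change 0.83, adjusted p = 6.6e-05). Of 4 skeletal muscle genes measured, Tnnt1, the slow troponin T, rose by 1.08 and Acta1, skeletal alpha-actin, had a log2 fold change of -1.39, and 2 did not pass.

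Endoderm genes did not move as 1 group. Of 17 measured, 5 rose, 3 fell and 9 did not pass, with a median log2 fold change of 0.01. Over all genes 32.5% were called higher and 25.6% lower. Sox17, a master factor of endoderm, read 67.7, 94.1 and 73.3 in GATA4+SKM, against 1125 and 1162 in GATA6+SKM (log2 fold change -3.42, adjusted p = 4.7e-11). SKM+EV read 44 and 34.4 and the other SKM groups had means from 28.3 to 57.4, so that the GATA6+SKM arrays stood above every other group. Plat, the tissue plasminogen activator, read 1747, 1724 and 1514 in GATA4+SKM, against 5209.8 and 4903 in GATA6+SKM (log2 fold change -1.59, adjusted p = 6.7e-09), with SKM+EV at 6645 and 5611. Lamb1, the laminin beta 1 chain of basement membrane, rose, with 12652, 15726 and 16024 in GATA4+SKM, against 5956 and 6011 in GATA6+SKM (log2 fold change 1.29, adjusted p = 2.3e-08), as did Rbp4.

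Vessel genes showed a like mixture. Of 16 endothelial genes measured, 8 fell, 3 rose and 5 did not pass (median log2 fold change -0.45). Podxl, a sialomucin of vessel and kidney cells, read 4544, 4174 and 5153 in GATA4+SKM, against 16651 and 18949 in GATA6+SKM (log2 fold change -1.94, adjusted p = 6.2e-09), and 468 and 396 in SKM+EV. Ptprb, the vascular receptor phosphatase VE-PTP, read 1046, 1053 and 895 in GATA4+SKM, against 4248 and 3887 in GATA6+SKM (log2 fold change -2.0, adjusted p = 7.4e-09), and 59.4 and 47.5 in SKM+EV. Both genes were above SKM+EV in each GATA group, Podxl by 3.33 log2 units in GATA4+SKM and 5.27 in GATA6+SKM, and Ptprb by 3.59 and 5.59. Esam, an adhesion molecule of vessels, read 473, 471 and 531 in GATA4+SKM, against 2806 and 2769 in GATA6+SKM (log2 fold change -2.43, adjusted p = 1.3e-08). Bcl6b, a transcriptional repressor, rose, with 399.9, 460.2 and 391 in GATA4+SKM, against 64.6 and 79.8 in GATA6+SKM (log2 fold change 2.11, adjusted p = 4.7e-09). Among the defining vessel markers, Pecam1 did not pass and Cdh5 had a log2 fold change of -0.48 at intensities of 121, 138 and 108 in GATA4+SKM, against 154 and 216 in GATA6+SKM.

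Interferon response genes were the list with the lowest median among the 25 described, -1.14. Of 27 measured members 21 fell, 2 rose and 4 did not pass, and 14 of the 21 fell at least 2-fold. The summed intensity of the list was 55362 to 56892 on the GATA4+SKM arrays, against 121175 to 121345 on the GATA6+SKM arrays. Rsad2, the antiviral enzyme viperin, read 542, 565 and 606 in GATA4+SKM, against 5405 and 5349.9 in GATA6+SKM (log2 fold change -3.17, adjusted p = 2.7e-13), and 809 and 798 in SKM+EV. Ifit1, which binds foreign RNA, read 2822, 2699.5 and 2632 in GATA4+SKM, against 22147 and 19102 in GATA6+SKM (log2 fold change -2.91, adjusted p = 2.1e-12), and 3614 and 3064 in SKM+EV. In both genes GATA6+SKM stood apart and GATA4+SKM lay near SKM+EV, at log2 differences from SKM+EV of -0.47 for Rsad2 and -0.29 for Ifit1. Irf7, the regulator that amplifies the interferon response, read 3424, 3767 and 4020.5 in GATA4+SKM, against 15930.0 and 16686 in GATA6+SKM (log2 fold change -2.12, adjusted p = 2.2e-10), and 1883 and 2565 in SKM+EV. Oasl1, an inhibitor of Irf7 translation, read 86.9, 124 and 100.3 in GATA4+SKM, against 587 and 559 in GATA6+SKM (log2 fold change -2.16, adjusted p = 2.7e-09).

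The comparisons with SKM+EV share those 2 arrays. Against SKM+EV, 14 interferon genes were higher and 8 lower in GATA4+SKM (median log2 fold change 0.33), where 66.3% of all genes were called, 35.9% higher and 30.3% lower. Against SKM+EV, 21 were higher and 1 lower in GATA6+SKM (median 1.31), where 34.9% of all genes were called, 17.3% higher and 17.6% lower. The other SKM groups had list medians against SKM+EV, with no test, from -0.77 in SOX7+SKM to 0.89 in MIXL1+SKM, all below GATA6+SKM. The exceptions to the falls were Ifi27 and Psmb8, which rose, and Ifit2, Ddx58, Tap1 and Psmb9, which did not pass. The heat map of the list by array shows the 2 GATA6+SKM arrays high in most rows.

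**Figure D3:**
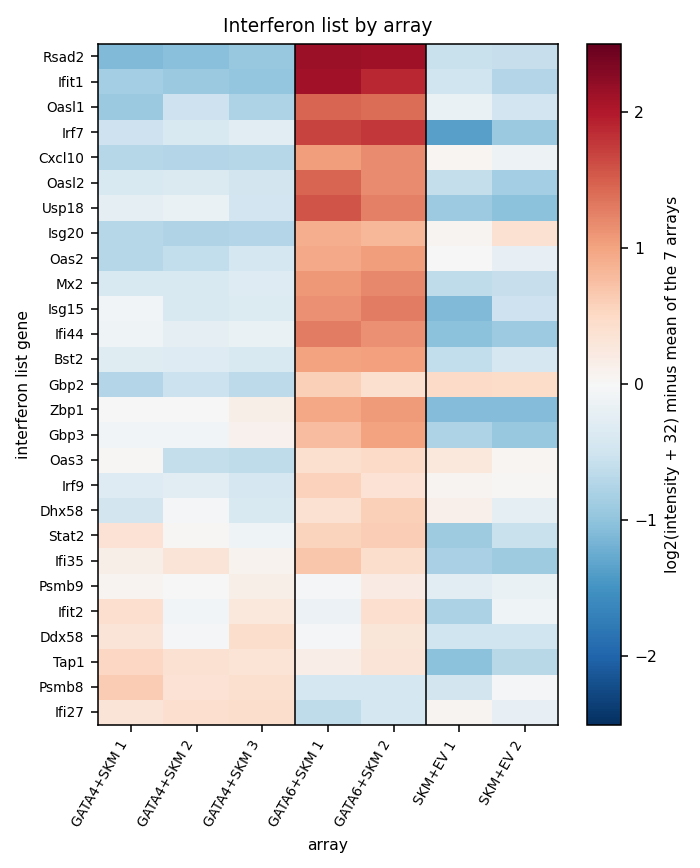
Heat map of 27 interferon response genes (rows, ordered by log2 fold change) on 3 arrays of GATA4+SKM, 2 of GATA6+SKM and 2 of SKM+EV (columns), with colour for log2(intensity + 32) minus the gene's mean over the 7 arrays. Rsad2, Ifit1, Oasl1 and Irf7 in the top rows are red on the GATA6+SKM arrays and blue on the GATA4+SKM arrays, and Ifi27 and Psmb8 at the bottom run the other way.

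The promoter windows of Rsad2, Ifit1 and Isg15 are shown because these genes moved together and their windows hold the core letters of the interferon-stimulated response element (GAAA, any 2 bases, GAAA), searched on both strands. Isg15, a ubiquitin-like modifier, was added after its window was seen. It read 3542, 2814 and 2892 in GATA4+SKM, against 8252 and 8966 in GATA6+SKM (log2 fold change -1.48, adjusted p = 1.3e-06). The windows come from RefSeq, build GRCm38.p6, at chr12:26456403-26456702, minus strand for Rsad2, chr19:34640639-34640938, plus strand for Ifit1 and chr4:156200769-156201068, minus strand for Isg15, each from 250 bases before to 50 bases after the start, with matches in capitals.
Rsad2: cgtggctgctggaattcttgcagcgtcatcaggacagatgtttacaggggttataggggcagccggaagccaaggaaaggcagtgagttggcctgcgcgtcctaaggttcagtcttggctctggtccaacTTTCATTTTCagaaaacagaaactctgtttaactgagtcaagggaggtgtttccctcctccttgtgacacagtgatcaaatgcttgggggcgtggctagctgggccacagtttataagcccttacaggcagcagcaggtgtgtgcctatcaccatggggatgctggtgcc
Ifit1: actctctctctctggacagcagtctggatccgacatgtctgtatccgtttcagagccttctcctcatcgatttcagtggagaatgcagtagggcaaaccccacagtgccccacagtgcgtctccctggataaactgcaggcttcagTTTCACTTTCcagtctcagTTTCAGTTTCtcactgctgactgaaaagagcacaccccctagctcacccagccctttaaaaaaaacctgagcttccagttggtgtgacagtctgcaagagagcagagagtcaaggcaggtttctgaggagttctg
Isg15: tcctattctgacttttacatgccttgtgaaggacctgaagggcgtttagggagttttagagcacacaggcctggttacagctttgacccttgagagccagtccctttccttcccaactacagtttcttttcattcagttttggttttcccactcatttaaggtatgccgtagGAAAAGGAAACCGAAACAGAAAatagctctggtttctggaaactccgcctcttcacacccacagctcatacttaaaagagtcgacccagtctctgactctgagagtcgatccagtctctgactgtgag
The Rsad2 match begins 120 bases before the start, those of Ifit1 104 and 85 bases before, and those of Isg15, which overlap, 78, 72 and 66 bases before. RefSeq held windows for 16 of the 21 interferon genes that fell, and 9 of their 20 windows (45%) had a match, as did 1 of 6 windows (16.7%) of the members that did not fall. Among windows of all tested genes the share was 2.86%, among genes at least 2-fold higher in GATA4+SKM 2.74%, and among genes at least 2-fold lower 3.73%. The GATA letters searched above were in as many of the windows of the interferon genes that fell, 9 of 20 (45%), against 20.1% of windows of all tested genes, and the Rsad2 window holds 1 such match, not in capitals here.

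Most keratinocyte genes measured, keratins among them, were lower in GATA4+SKM. Of 21 keratinocyte genes measured, 13 fell, 2 rose and 6 did not pass (median log2 fold change -0.73), and the list summed to 38708 to 41076 on the GATA4+SKM arrays against 109833 to 114735 on the GATA6+SKM arrays. Krt14, the basal epidermal keratin, read 9066, 7731 and 9916 in GATA4+SKM, against 46950.2 and 51161 in GATA6+SKM (log2 fold change -2.46, adjusted p = 1.5e-10). Its SKM+EV arrays read 51161 and 46556, so that GATA6+SKM was at the SKM+EV level. Krt17, a keratin of hair follicle and stressed skin, read 2079, 1583 and 1173 in GATA4+SKM, against 6442 and 9239 in GATA6+SKM (log2 fold change -2.27, adjusted p = 1.7e-07), below the 13691 and 21386 of SKM+EV in both groups. Sfn, the epithelial 14-3-3 sigma, read 2055, 2159.9 and 2191 in GATA4+SKM, against 6961 and 6661 in GATA6+SKM (log2 fold change -1.66, adjusted p = 1.0e-07). Lgals7, galectin-7 of stratified epithelia, read 4982, 5403 and 4857 in GATA4+SKM, against 14966 and 13972 in GATA6+SKM (log2 fold change -1.50, adjusted p = 7.1e-09). Against SKM+EV, the list had 20 lower genes and none higher in GATA4+SKM (median -2.76, 30.3% and 35.9% over all genes). In GATA6+SKM 15 were lower and 1 higher (median -1.54, 17.6% and 17.3% over all genes).

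Simple epithelial genes showed the same direction, some of them with another order of groups. Of 13 measured, 8 fell, 1 rose (none without GATA6+SKM replicate 1) and 4 did not pass (median -0.79). Krt8, a keratin of simple epithelia, read 9162, 7746 and 9342 in GATA4+SKM, against 29279.7 and 37539 in GATA6+SKM (log2 fold change -1.92, adjusted p = 2.5e-07), and 5807 and 10309 in SKM+EV. Krt19 read 2022, 2027 and 2075 in GATA4+SKM, against 8834 and 7987 in GATA6+SKM (log2 fold change -2.02, adjusted p = 2.0e-11), and 2998 and 2729.8 in SKM+EV. Both keratins were highest in GATA6+SKM (2.09 and 1.54 log2 units above SKM+EV). Cldn6, a tight junction protein of embryonic epithelia, read 96.1, 163 and 125 in GATA4+SKM, against 828 and 767 in GATA6+SKM (log2 fold change -2.40, adjusted p = 8.5e-09), and Krt7 read 374, 425 and 489 in GATA4+SKM, against 1372 and 889.8 in GATA6+SKM (log2 fold change -1.31, adjusted p = 1.8e-04). Krt7 was not highest in GATA6+SKM: SKM+EV read 1642 and 1285, and the difference of GATA6+SKM from it did not pass (log2 fold change -0.38, adjusted p = 0.263 in the limma fit). Against SKM+EV, 2 genes of the list were higher and 8 lower in GATA4+SKM (median -0.62, 35.9% and 30.3% over all genes). In GATA6+SKM 4 were higher and 1 lower (median -0.11, 17.3% and 17.6% over all genes).

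Most genes of cell division were higher in GATA4+SKM. Of 24 measured, 19 rose, 1 fell (2 without GATA6+SKM replicate 2) and 4 did not pass (median log2 fold change 0.71), and 9 rose at least 2-fold. Mki67, the proliferation marker Ki-67, read 628, 533 and 495 in GATA4+SKM, against 112 and 119 in GATA6+SKM (log2 fold change 1.98, adjusted p = 5.7e-08), and 123 and 148 in SKM+EV. Ccnb2, a mitotic cyclin, read 322, 329 and 242 in GATA4+SKM, against 89.7 and 101 in GATA6+SKM (log2 fold change 1.36, adjusted p = 1.2e-06). Bub1, a kinase of the spindle checkpoint, read 593, 545 and 509.8 in GATA4+SKM, against 188 and 208 in GATA6+SKM (log2 fold change 1.34, adjusted p = 1.4e-05). Top2a, the topoisomerase of dividing cells, read 813, 779 and 623 in GATA4+SKM, against 298 and 287 in GATA6+SKM (log2 fold change 1.24, adjusted p = 3.8e-06). In all 4 genes GATA4+SKM was above both GATA6+SKM and SKM+EV. The member that fell was the G1 cyclin Ccnd2, with 7223, 7928 and 6465 in GATA4+SKM, against 16059 and 13907 in GATA6+SKM (log2 fold change -1.05, adjusted p = 2.4e-07). Against SKM+EV, 18 members were higher and 3 lower in GATA4+SKM (median 0.79, 35.9% and 30.3% over all genes). In GATA6+SKM 3 were higher and 4 lower (median -0.15, 17.3% and 17.6% over all genes). The list's median against SKM+EV, with no test, was also positive in 5 groups with other factors. It was 0.84 in CEBPa+SKM, 0.77 in HNF4a+SKM and 0.79 in GRB2+SKM, whose group means correlated with each other at 0.993 to 0.994 over genes, and 0.28 in PAX1+SKM and 0.19 in OCT4+SKM. CEBPa+SKM, HNF4a+SKM and GRB2+SKM, like GATA4+SKM, also had low medians of the olfactory receptors and high averages of the Mmut probe. What any of these groups shares with GATA4+SKM was not tested.

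**Figure D4:**
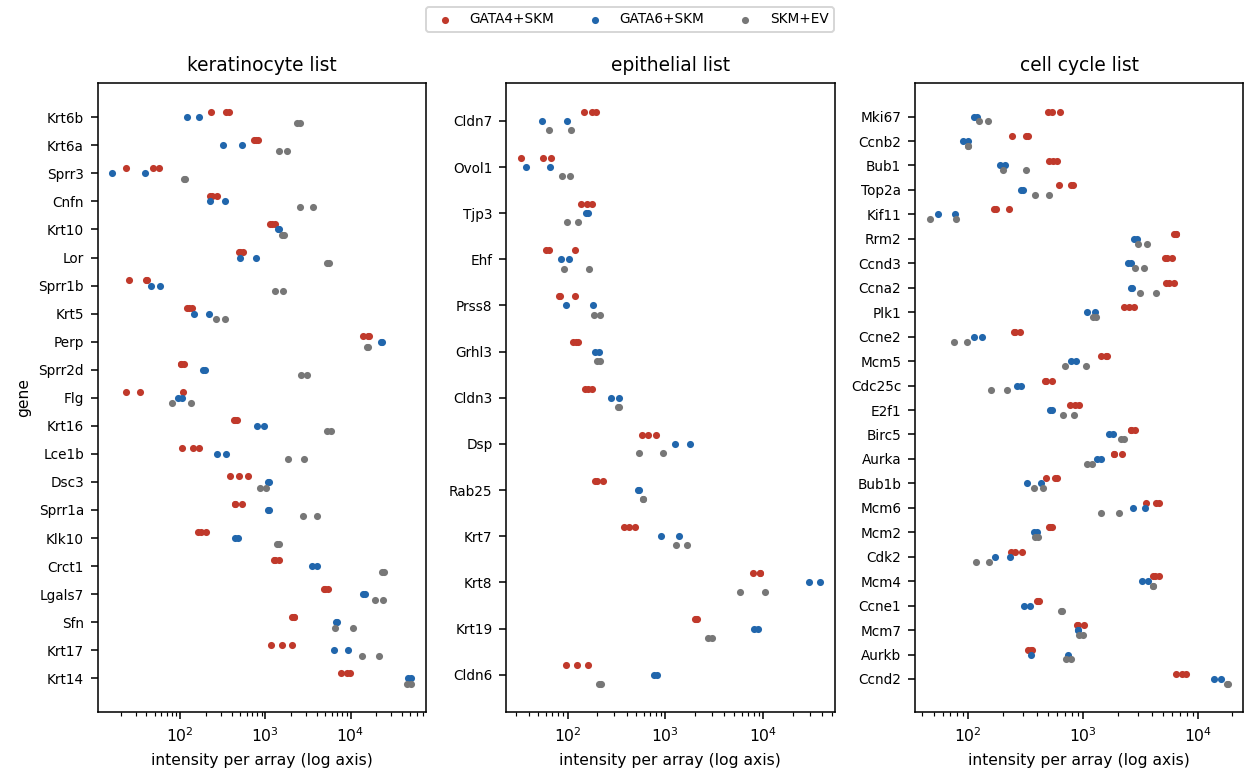
Intensity on each array (log axis) for the keratinocyte, epithelial and cell cycle lists, genes ordered by log2 fold change, with GATA4+SKM in red (3 arrays), GATA6+SKM in blue (2 arrays) and SKM+EV in grey (2 arrays). Krt14 and Krt8 lie lower in GATA4+SKM than in GATA6+SKM, while Mki67 and Ccnb2 lie higher in GATA4+SKM than in both other groups.

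Most genes of p53 and senescence measured were lower in GATA4+SKM. Of 13 measured, 10 fell, none rose and 3 did not pass (median -0.61), where 25.6% of all genes were called lower. Against SKM+EV, 2 were higher and 5 lower in GATA4+SKM (median -0.28, 35.9% and 30.3% over all genes). In GATA6+SKM 5 were higher and none lower (median 0.33, 17.3% and 17.6% over all genes). Igfbp3, which binds insulin-like growth factors and is a p53 target, read 697, 586 and 632 in GATA4+SKM, against 2488 and 2853 in GATA6+SKM (log2 fold change -2.01, adjusted p = 1.9e-09), and 2366 and 3171 in SKM+EV. Gadd45b, a stress-induced growth arrest gene, read 1333, 1425 and 1413 in GATA4+SKM, against 4823 and 4258 in GATA6+SKM (log2 fold change -1.68, adjusted p = 5.2e-11). Cdkn2b, the cell cycle inhibitor p15, read 10239.6, 10613 and 10885 in GATA4+SKM, against 19860.4 and 20025 in GATA6+SKM (log2 fold change -0.91, adjusted p = 2.3e-06). Trp53inp1, a p53-induced nuclear protein, read 728, 650.1 and 725 in GATA4+SKM, against 1134 and 1444 in GATA6+SKM (log2 fold change -0.84, adjusted p = 2.9e-04). In Igfbp3 and Cdkn2b, GATA6+SKM was near SKM+EV, while in Trp53inp1 both groups were above the 337 and 503 of SKM+EV.

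Of 32 fibroblast genes measured, 16 rose, 6 fell and 10 did not pass (median 0.36). Zeb2, a repressor of epithelial genes, read 388, 289.8 and 298 in GATA4+SKM, against 60.7 and 108 in GATA6+SKM (log2 fold change 1.64, adjusted p = 2.9e-05). Fap, a fibroblast surface protease, read 925, 957 and 993 in GATA4+SKM, against 285 and 342 in GATA6+SKM (log2 fold change 1.52, adjusted p = 2.2e-07), and 1676 and 1195 in SKM+EV. Dcn, the matrix proteoglycan decorin, fell, with 8646, 7449 and 7485 in GATA4+SKM, against 27118 and 31203 in GATA6+SKM (log2 fold change -1.89, adjusted p = 1.1e-04), but its 2 SKM+EV arrays lay apart, at 11518 and 29907. Cdh2, N-cadherin, read 668, 739 and 796 in GATA4+SKM, against 1931 and 2321 in GATA6+SKM (log2 fold change -1.49, adjusted p = 1.0e-07). Against SKM+EV, 3 genes of the list were higher and 19 lower in GATA4+SKM (35.9% and 30.3% over all genes). In GATA6+SKM 1 was higher and 25 lower (17.3% and 17.6% over all genes).

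Of 14 cholesterol synthesis genes, 9 rose, 2 fell and 3 did not pass (median 0.48), with 1 fall when any array of the 2 groups except GATA4+SKM replicate 3 was left out. Fdps, farnesyl diphosphate synthase, read 359, 389.6 and 362 in GATA4+SKM, against 82.8 and 98.9 in GATA6+SKM (log2 fold change 1.71, adjusted p = 1.1e-07). Mvd, the mevalonate decarboxylase, read 926, 843 and 999 in GATA4+SKM, against 290.5 and 302 in GATA6+SKM (log2 fold change 1.54, adjusted p = 4.1e-08), and 707 and 624 in SKM+EV. Idi1 and Nsdhl rose by 0.99 and 0.76 on the log2 scale. Against SKM+EV, 7 members were higher and 4 lower in GATA4+SKM (35.9% and 30.3% over all genes). In GATA6+SKM none was higher and 7 were lower (17.3% and 17.6% over all genes). The list's median against SKM+EV, with no test, was 0.54 in CEBPa+SKM, 0.65 in HNF4a+SKM and 0.43 in GRB2+SKM, above the 0.15 of GATA4+SKM.

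Among 12 glycolysis genes 2 rose, 6 fell and 4 did not pass (median -0.15). Aldoc, the brain form of aldolase, read 12386, 13066 and 10919.6 in GATA4+SKM, against 2189.7 and 1995 in GATA6+SKM (log2 fold change 2.51, adjusted p = 4.8e-11), and 1613 and 1567 in SKM+EV. Hk2, hexokinase 2, and Slc2a3, the glucose transporter GLUT3, had log2 fold changes of -0.97 and -0.72, and Pkm, pyruvate kinase, had -0.57. Of 10 fat cell genes 2 rose and 4 fell. Fabp4, a fatty acid carrier, read 933, 792 and 647 in GATA4+SKM, against 35.7 and 60.7 in GATA6+SKM (log2 fold change 3.36, adjusted p = 7.1e-11), and 313 and 402 in SKM+EV. Acsl1, which activates fatty acids, rose by 1.64, while Car3, a carbonic anhydrase of fat and muscle, had a log2 fold change of -2.64 and the fatty acid receptor Cd36 of -1.19. The Cd36 call was lost without GATA6+SKM replicate 1 (adjusted p = 0.0678).

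Signalling lists held genes of both directions. In the TGF-beta and BMP list, 8 of 22 rose and 7 fell, near the shares over all genes, 32.5% higher and 25.6% lower. The median log2 fold change of that list was 0.04, and 0.14 without GATA6+SKM replicate 2. Id4, an inhibitor of helix-loop-helix factors, read 799, 753 and 774 in GATA4+SKM, against 84.9 and 129.8 in GATA6+SKM (log2 fold change 2.55, adjusted p = 5.1e-10), while its relative Id1 read 658, 464 and 495 in GATA4+SKM, against 1183 and 1777 in GATA6+SKM (log2 fold change -1.39, adjusted p = 9.5e-05). Grem1, a BMP antagonist, read 239, 203 and 189 in GATA4+SKM, against 754 and 678 in GATA6+SKM (log2 fold change -1.63, adjusted p = 2.3e-09), and Bmp4 had a log2 fold change of -1.45. In the Wnt list, 3 of 21 rose and 9 fell, with 1 rise without GATA6+SKM replicate 1. Wnt7a, a secreted ligand, read 124, 171 and 108 in GATA4+SKM, against 978 and 909 in GATA6+SKM (log2 fold change -2.57, adjusted p = 1.8e-09). The receptor Fzd5 rose by 1.43, and the antagonists Dkk2 and Sfrp2 had -1.47 and -1.41. In the inflammatory list, 5 of 22 rose and 9 fell. Mmp3, a matrix protease, read 535, 543 and 599.7 in GATA4+SKM, against 89.7 and 79.8 in GATA6+SKM (log2 fold change 2.34, adjusted p = 6.6e-11), both under the 2051 and 1708 of SKM+EV. Il1rn, the interleukin 1 receptor antagonist, and C3, the complement component, rose by 2.25 and 2.05, and Ptgs2, the inducible cyclooxygenase, had -1.74.

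Of 17 imprinted genes, expressed from 1 parental copy, 11 fell and 1 rose (median -0.48), with 8 falls without GATA6+SKM replicate 1 and 7 under the replicate block on 4 arrays. Asb4 read 271, 206 and 254 in GATA4+SKM, against 1406 and 1949 in GATA6+SKM (log2 fold change -2.62, adjusted p = 1.0e-07). Peg3 read 494, 449.9 and 487 in GATA4+SKM, against 1541 and 2134 in GATA6+SKM (log2 fold change -1.86, adjusted p = 7.7e-08), and 3378 and 2400.2 in SKM+EV, above both groups. Grb10, a growth factor receptor adaptor, read 5153, 5835 and 5605 in GATA4+SKM, against 16217 and 14895 in GATA6+SKM (log2 fold change -1.49, adjusted p = 3.5e-10). Of 16 detoxification genes 4 rose and 8 fell. The glutathione transferase Gsta3 read 515, 533 and 473 in GATA4+SKM, against 4309 and 3892 in GATA6+SKM (log2 fold change -2.94, adjusted p = 3.4e-11), and Aldh1a1, which makes retinoic acid, read 4483, 5221 and 3575 in GATA4+SKM, against 23243 and 18443 in GATA6+SKM (log2 fold change -2.23, adjusted p = 4.2e-09). Gstt1, another glutathione transferase, rose, with 2532, 2799.7 and 2556 in GATA4+SKM, against 555 and 454 in GATA6+SKM (log2 fold change 2.32, adjusted p = 1.5e-11), and Mgst2, a microsomal one, had -2.46.

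Ectoderm and neural genes gave 8 rises and 3 falls of 19 (median 0.41, and 0.18 without GATA6+SKM replicate 2). Nefm, a neurofilament, read 749.7, 783 and 625 in GATA4+SKM, against 125 and 149 in GATA6+SKM (log2 fold change 2.15, adjusted p = 8.9e-10), and Zfp521, a zinc finger factor of neural progenitors, read 3028, 3431 and 2836 in GATA4+SKM, against 970.4 and 1009.5 in GATA6+SKM (log2 fold change 1.61, adjusted p = 1.7e-09). Stmn2, a microtubule regulator of neurons, rose by 1.48, and Msx2, a homeobox gene, by 1.25 at intensities of 92.9, 42 and 51.9 in GATA4+SKM, against 7 and 6.13 in GATA6+SKM, at the dim end. Of 4 neural crest, glia and melanocyte genes, Ednrb and Mitf rose by 1.17 and 1.14, and Mlana and Ngfr had -1.05 and -0.98, calls that were lost without GATA6+SKM replicate 1 (adjusted p = 0.119 and 0.12). Of 12 myeloid genes 4 rose and 3 fell, with 5 falls without GATA4+SKM replicate 2 and 2 without GATA4+SKM replicate 1. These counts were near the shares over all genes, 32.5% higher and 25.6% lower. The median log2 fold change of the list was -0.08, and -0.11 without GATA6+SKM replicate 1. The 4 rises were Laptm5, Coro1a, C1qa and Spi1, by 1.30, 1.19, 0.86 and 0.83 (the last call lost without GATA6+SKM replicate 1, adjusted p at most 0.0939). All 4 were among the dim genes. With the dimmest genes left out, as for the receptors above, 2 of the 12 members remained. Of these none rose and 1 fell, with a median log2 fold change of -0.73. The whole list summed to 2633 to 2755 in GATA4+SKM, against 2566 to 2628 in GATA6+SKM. Of 18 stress and unfolded protein response genes 5 rose and 2 fell, and no fall was left without GATA4+SKM replicate 1 or without either GATA6+SKM replicate. Trib3 and Asns, targets of the amino acid response, rose by 0.88 and 0.68, Chac1 by 0.55, and Ddit3 (CHOP) had -0.53, a call lost without GATA4+SKM replicate 1 or either GATA6+SKM replicate (adjusted p at most 0.136).

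Of 23 listed factor and reprogramming genes 11 had a value, of which 1 rose (2 without GATA4+SKM replicate 1), 5 fell (3 without GATA6+SKM replicate 2) and 5 did not pass. Klf5, a relative of Klf4, rose, with 2006, 1891 and 2318 in GATA4+SKM, against 736 and 792 in GATA6+SKM (log2 fold change 1.40, adjusted p = 4.0e-07), and 613 and 517 in SKM+EV. Utf1, a chromatin gene of pluripotent cells, read 188, 194 and 227 in GATA4+SKM, against 456 and 425 in GATA6+SKM (log2 fold change -1.01, adjusted p = 5.6e-06), and Esrrb, an orphan receptor of pluripotent cells, read 94.5, 108 and 84.1 in GATA4+SKM, against 148 and 226 in GATA6+SKM (log2 fold change -0.76, adjusted p = 0.0105), a call lost without GATA6+SKM replicate 2 (adjusted p at most 0.148). Pou5f1, the gene of OCT4, read 62.6, 108 and 105 in GATA4+SKM, against 84.9 and 60.7 in GATA6+SKM and did not pass (log2 fold change 0.23, adjusted p = 0.265). The plot of all 25 lists shows their members together.

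**Figure D5:**
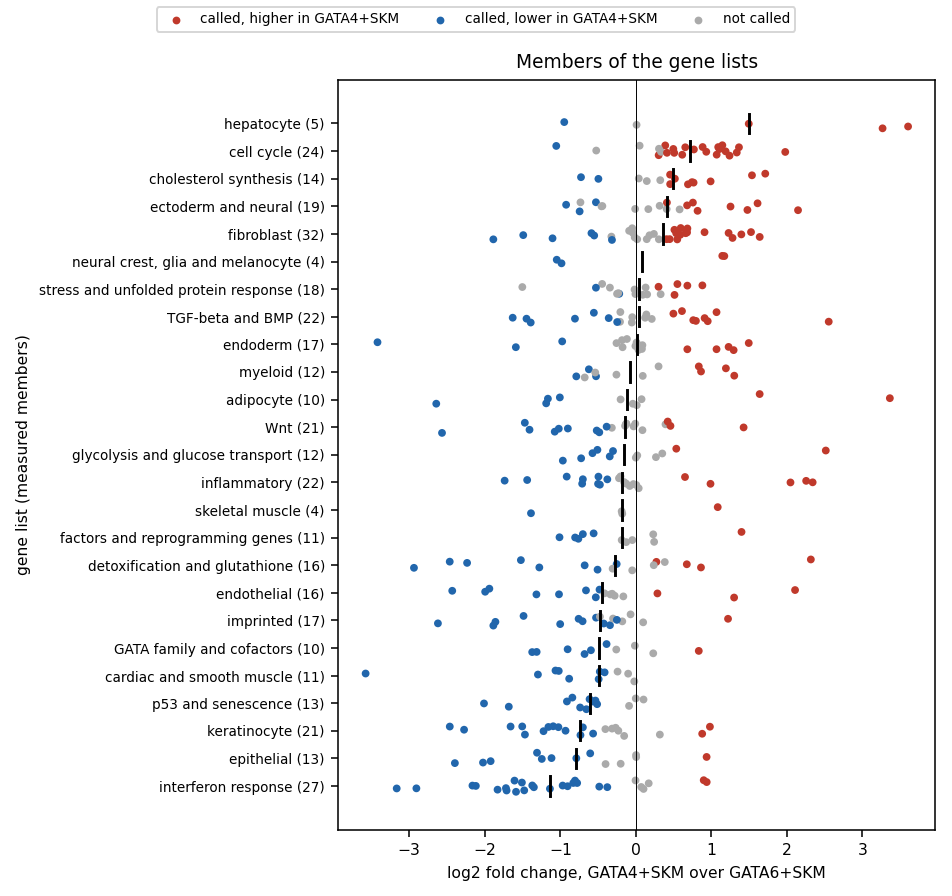
Log2 fold change (GATA4+SKM over GATA6+SKM) of every measured member of 25 gene lists, a point per gene and a black bar at each list's median, with red for genes called higher in GATA4+SKM, blue for genes called lower and grey for genes not called. The hepatocyte and cell cycle lists have the highest medians, 1.49 and 0.71 (0.53 and 0.61, in the other order, on the mean of all probes of a gene), and the interferon list the lowest, -1.14.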

How the data were processed

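The deposited table holds one-colour (Cy5) array intensity values per probe, on a linear scale, of total RNA, per the labels. How the scanner signals were normalized is not given in the sources used here. Among the deposited intensity values of the 23 arrays of MEF1 EV (fibroblasts with empty vector) and the 10 SKM groups, 98.9% were whole multiples of 1/46 (tolerance 0.001) and sorted values deviated from a common profile by a median of 0.581%, a form that quantile normalization over 23 arrays leaves. 5 values were below 0 and were set to 0.

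Of 19426 probes, 15539 had 1 gene symbol, none had several and 3887 had none. Current symbols named 13971, unique synonyms 1538, and 30 kept the platform's name. Of 14562 probes with a value, 11111 were named, and the probe with the highest mean stood for each of the 919 genes with several, which left 10108 genes. A group-means model (limma 3.58.1, R 4.3.3) was fitted to the 23 arrays on log2(intensity + 32), with an intensity trend in the variance, and tested GATA4+SKM against GATA6+SKM and each against SKM+EV. A fold change understates the change of dim genes. Tests were two-sided. The fit was tested on simulated data of GATA4+SKM against GATA6+SKM over 10108 genes with 200 changed genes in 10 draws, and recovered 39.8% of changes of 0.5, 86.4% of 1 and 99.4% of 2 log2 units, with 6.7 false calls on average. The data had 5872 genes called, far more than the 200 changed, and the simulated noise was drawn for each gene on its own. These rates therefore do not carry over to the data, nor do they cover a shift shared by many genes of an array.

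Named genes were the 15 largest rises and 15 largest falls among genes called, with non-overlapping arrays and the brighter group above the median gene, the introduced factors with a probe, and up to 4 called members of each list. The members and lists were chosen with earlier results of these data known. Alternatives changed the arrays fitted, pseudocount, variance trend, weights, scaling, filter and probes, left out each array in turn, and blocked on the replicate number. The number of arrays limits the precision.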

Additional observations from a re-analysis of the deposited data

How the results depend on the processing

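For 125 named genes under 19 alternative settings, 2322 values kept direction and side of the threshold, 23 (15 genes) kept direction and lost the call, and 9 (2 genes) changed sign without being called. The count of higher genes ran from 2553 to 3129 and that of lower genes from 1797 to 2464 when 1 array was left out in turn, and the counts at 2-fold from 734 to 976 and from 629 to 972. Adding the 2-fold rule left 824 higher and 775 lower genes. Deviations of same-numbered arrays from their group means correlated at -0.37 and -0.26, and those of arrays numbered 1 and 2 crosswise at 0.37 and 0.26. With 2 GATA6+SKM arrays these values mirror each other by construction, so they cannot show whether the replicate numbers pair the arrays. A replicate block on the 4 arrays numbered 1 and 2 called 1852 higher and 1370 lower genes, from fewer samples. A replicate block in the fit of all arrays called 3089 and 2424. Klf4 changed sign to a log2 fold change of 0.0155 under both replicate blocks and to 0.0287 without GATA6+SKM replicate 1, and ran from -0.12 to 0.0287 with 1 array left out. Tnnt2 changed to 0.00795 with array weights and to 0.10 under both replicate blocks, and ran from -0.13 to 0.10 with 1 array left out. Neither gene passed in any of these settings, and the cause was not tested. Other calls lost were Asns, C1qa, Gata4 and Hk2 with all 49 arrays in the fit, Mef2c on the mean of its probes, Scd2 with the 5 arrays alone, and Chac1, Ddit3, Esrrb, Nsdhl, Pkm, Scd2 and Spi1 under the replicate block on 4 arrays. Ddit3, Esrrb, Gata4, Spi1, Cd36, Mlana and Ngfr lost theirs without 1 array or another. On the mean of all probes of a gene, the log2 fold changes of Grin1, Mmut, Fzd5, Gadd45b, Cd36, Nav2 and Rbp4 were 1.27, 2.33, 0.72, -0.85, -0.73, -4.22 and 0.53, over 1.5 times smaller than reported, and all 7 passed. The probes of each of these genes thus did not give the same difference.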

Other observations

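Gene families were also read, chosen after their values were seen. The shares over all genes were 32.5% higher and 25.6% lower. Of 27 kinesins, motor proteins that walk on microtubules, 16 rose in GATA4+SKM, 4 fell (1 without GATA6+SKM replicate 1) and the median log2 fold change was 0.62. Of 28 Cep genes, which code for centrosome proteins, 19 rose (12 without GATA6+SKM replicate 1, and 11 with all 49 arrays in the fit) and 3 fell (median 0.46). Of 20 Rpl genes, for proteins of the large ribosomal subunit, 11 rose and none fell (median 0.48), and of 10 Rps genes, for the small subunit, 3 rose and 1 fell (2 without GATA6+SKM replicate 2, none without GATA6+SKM replicate 1, median 0.10), both families being prone to probes shared with near-identical copies. Of 199 Zfp zinc finger genes 103 rose and 29 fell (19 without GATA6+SKM replicate 1, median 0.36), and of 21 Med genes, of the Mediator complex, 10 rose (6 without GATA6+SKM replicate 1) and 1 fell (median 0.41). Of 8 clade B serpins, 2 of them described above, none rose and 6 fell (median -1.22). Not every family moved to 1 side. Rises among the Rps genes were near the share over all genes, and of 25 Hox genes 6 rose and 7 fell (median -0.07).

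Clu and Sox21 were also chosen after their values were seen. Clu, the secreted chaperone clusterin, read 4737, 4496 and 4971 in GATA4+SKM, against 26709 and 26296 in GATA6+SKM (log2 fold change -2.48, adjusted p = 6.5e-13 in the limma fit), and 1948 and 2087 in SKM+EV. Sox21, a neural SOX factor, read 3329.8, 2505 and 2843 in GATA4+SKM, against 306 and 425 in GATA6+SKM (log2 fold change 2.89, adjusted p = 1.0e-08), and 97.6 and 103 in SKM+EV.

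Some probes switched between groups. The Nav2 probe averaged 8.77 in GATA4+SKM, against 12453 in GATA6+SKM, 14723 in SOX7+SKM, 14069.6 in PAX1+SKM and 17227 in MIXL1+SKM, and 96.9 or less in the other SKM groups. The Mmut probe averaged 1026 in GATA4+SKM and 1490.1 in CEBPa+SKM, 1468 in HNF4a+SKM and 1495 in GRB2+SKM, against 20.6 in GATA6+SKM and 24.1 in SKM+EV.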
